A study of Homo sapiens with 12 samples.

Results

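SW480 is an established line from a human colorectal adenocarcinoma. It carries a truncated APC gene and is used as a model of active Wnt signalling. RNA was sequenced from 12 SW480 libraries in 4 groups of 3, each library numbered 1, 2 or 3 in its title. The groups were untreated cells, cells given PUE, cells given GLY and cells given both (GLY_PUE), with the abbreviations kept as the labels write them. The comparison described here sets the 4 libraries numbered 3, 1 from each group, against the 8 libraries numbered 1 and 2 of the same groups, out of 12 in all, with the treatment group as a term of the model. The members were chosen by this number alone and not by any measured value.

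Per the labels' protocols, all cells had 12 h in medium with 10% serum and then 12 h in fresh medium with or without treatment, and 0.5 µg of RNA went into each library for the BGISEQ-500 platform. The hours given in the labels of the GLY libraries are 12, 13 and 14 for numbers 1, 2 and 3, and 12 in the PUE and GLY_PUE libraries. The labels do not say what the number stands for, neither a culture, a passage, a day nor a sequencing run, and they do not say that replicates came from separate cultures. The p-values below therefore measure the spread between these libraries, and part of that spread may come from technique. The cell line field reads SW480 throughout, although a free-text field counts upward along the samples from SW480 to SW491, and the extraction text also mentions retinas.

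Several gene programmes recur below. Immediate early genes such as FOSB and JUN encode transcription factors that are switched on within minutes of growth factor, serum or stress signals. The unfolded protein response is the set of chaperones and folding enzymes of the endoplasmic reticulum that cells induce, through the sensors ATF6, IRE1 and PERK, when misfolded protein builds up there. Sterol synthesis genes are controlled by SREBP transcription factors, which are active when membrane cholesterol is low. Replication-dependent histone genes are transcribed mainly in S phase, from promoters with CCAAT and TATA elements.

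The table holds 3699 genes, all of which had been selected: in the authors' deposited table every gene passes a log2 ratio of 1 in size, with a q-value no higher than 0.001, for 1 or more of the comparisons between groups. Library totals recovered from the file were 19.42 to 21.03 M reads for number 3 and 19.83 to 21.08 M for numbers 1 and 2, and the listed genes took 15.2% ± 0.282 (SD, n = 4) of them in number 3 and 14.5% ± 0.602 (SD, n = 8) in the others. Levels are counts per 1 M reads of these totals (CPM), printed for libraries 1, 2 and 3 of a group in that order, and a count of 0 allows up to 0.154 CPM, counting error only. Of 7 epithelial markers the table holds VIL1 and CDX2, and EPCAM, KRT8, KRT18, KRT19 and CDH1 were not analysed here. Of 10 leukocyte markers it holds CD14 and CD68, which summed to 4.69 to 24.7 CPM in number 3 and 5.44 to 23.5 CPM in the others. PDGFRB, the 1 fibroblast marker held out of 10, lay at 0.849 to 3.79 CPM in number 3 and 0.698 to 2.04 CPM in the others, and ROBO4, the 1 endothelial marker held out of 10, at 0.250 to 17.5 and 0.303 to 8.90 CPM. PDGFRB was called higher in number 3 (log2 fold change 0.64, SE 0.21, adjusted p = 0.0439), and ROBO4, CD14 and CD68 were not called over the 4 groups. In GLY and GLY_PUE libraries alone, ROBO4 (log2 fold change 1.324, SE 0.23, adjusted p = 0.0101) and PDGFRB (log2 fold change 1.02, SE 0.18, adjusted p = 0.0101) were higher in number 3, while the defining markers PTPRC, COL1A1 and PECAM1 were not analysed here. The part of other cell types in the results was not tested.

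In each group, libraries 1 and 2 were close and library 3 was far from them, with 1 exception. A chi-square per gene between the counts of 2 libraries, which is about 1 when they differ by sampling noise alone, was 2.64 between untreated libraries 1 and 2 and 74.4 and 74.2 between these and number 3. For PUE it was 2.11 between numbers 1 and 2, and 71.5 and 68.8 from these to number 3. For GLY_PUE it was 4.78 between numbers 1 and 2, and 48.6 and 57.7 from these to number 3. The exception was GLY, where number 1 lay far from number 2 (167) and number 2 lay nearer to number 3 (69.1). The library numbered 3 of untreated cells differed from the library numbered 3 of PUE cells by 3.09, so that these libraries were grouped by number more closely than by group. The library numbered 3 of GLY cells lay 11.5 from that of GLY_PUE cells, and 59.9 and 73.3 from GLY_PUE libraries 1 and 2. GLY library 1 lay 162 to 200 from the GLY_PUE libraries.

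The difference of number 3 from numbers 1 and 2 was much the same in untreated and PUE cells and less alike elsewhere. Over 2458 genes whose log2 CPM averaged 1 or more, the difference of library 3 from the mean of libraries 1 and 2 had a Pearson correlation of 0.901 between untreated and PUE cells, which share no library in it. The same correlation was 0.484 between GLY and GLY_PUE, 0.458 between untreated and GLY_PUE, and 0.392 between untreated and GLY. Between PUE and the 2 GLY groups it was 0.282 (GLY) and 0.478 (GLY_PUE). In GLY cells the mean of libraries 1 and 2 holds library 1, which lay apart. Its part in the correlations that involve GLY was not tested. These are correlations across genes, which are not independent replicates, and all points share the selection of the table.

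**Figure D1:**
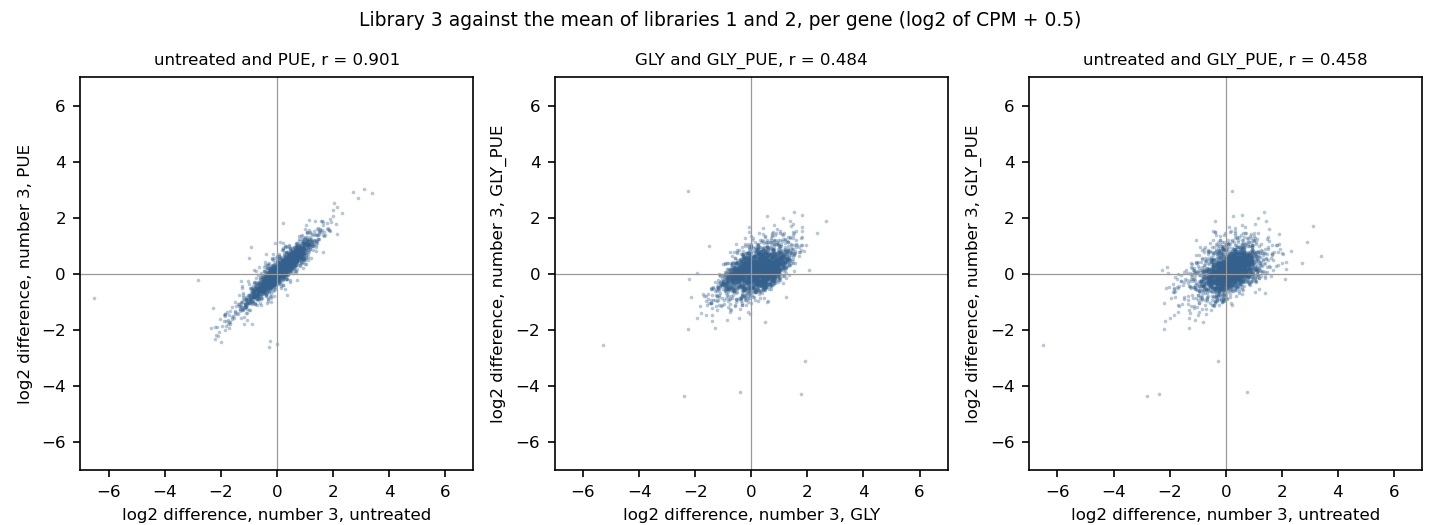
Each point is 1 of 2458 genes; both axes give the log2(CPM + 0.5) of library 3 minus the mean of libraries 1 and 2 within a group, for untreated against PUE, GLY against GLY_PUE and untreated against GLY_PUE. Points lie along the diagonal for untreated and PUE (r = 0.901) and scatter more widely in the other pairs (r = 0.484 and 0.458).

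Number 3 differed from numbers 1 and 2 in 804 of 3429 genes tested (23.4%; edgeR quasi-likelihood test with treatment group as a term, Benjamini-Hochberg adjusted p under 0.05). Of these, 622 were higher (18.1%) and 182 lower (5.31%), and 287 differed at least 2-fold (222 higher, 65 lower). In 628 of the 804, library 3 lay outside libraries 1 and 2 on the same side in all 4 groups, as it did in 988 of all 3429 genes (28.8%; 760 above, 22.2%, and 228 below, 6.65%). The median log2 fold change of all genes tested was 0.23, so the scale matters: with TMM scaling within the table, which lowers the values by a median of 0.25, 577 genes were called and 43.3% of them were higher, against 77.4% with library totals. The count was 341 without untreated replicate 3, 347 without PUE replicate 3, 522 without PUE replicate 1 and 1656 without GLY replicate 1.

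The 10 largest increases in number 3 included a prohormone convertase, an endothelin, a fatty acid enzyme and a glutamate receptor. They were picked among called genes whose library 3 lay above libraries 1 and 2 in all 4 groups. That position was therefore a condition of the choice and not a result. PCSK1, a convertase that cuts prohormones, stood at 0.801, 1.46 and 11.8 CPM in untreated cells, 1.41, 1.097 and 10.8 in PUE, 0.0479, 0.38 and 0.856 in GLY and 0.0949, 0.0955 and 0.816 in GLY_PUE. Library 3 was the highest of its group each time, and the levels with GLY rest on few reads (log2 fold change 3.01, SE 0.30, adjusted p = 1.79e-04). EDN3, an endothelin ligand, stood at 2.904, 3.23 and 23.03 CPM in untreated cells, 2.17, 2.59 and 21.4 in PUE, 0.0479, 0.0949 and 0.0951 in GLY and 0.0475, 0 and 0.192 in GLY_PUE. Number 3 was well above the others in untreated and PUE cells. With GLY, 6 reads in 2 libraries stood against 4 reads in 4 libraries, a ratio of 3.01 (95% counting interval 0.713 to 14.5), which was not distinguishable from no difference at this depth. VAT1L had the largest fold change (log2 fold change 3.55, SE 0.31, adjusted p = 1.06e-04), with 1.001, 0.958 and 12.2 CPM in untreated cells, 0.655, 0.548 and 8.55 in PUE, 0.0957, 0.38 and 1.47 in GLY and 0.142, 0 and 1.34 in GLY_PUE. With GLY, 59 reads of VAT1L in 2 number 3 libraries stood against 13 reads in 4 others, a ratio of 9.10 (95% counting interval 4.94 to 18.1). Library 3 was again the highest in each group.

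ACSL6, which activates long-chain fatty acids by joining them to coenzyme A, stood at 1.14, 1.199 and 17.1 CPM in untreated cells, 1.24, 1.397 and 13.1 in PUE, 0.639, 0.386 and 1.01 in GLY and 0.241, 0.728 and 0.988 in GLY_PUE (log2 fold change 2.67, SE 0.42, adjusted p = 0.00205). The gap was wide without GLY and narrow with it. DERL3, a part of the machinery that takes misfolded proteins out of the endoplasmic reticulum, stood at 2.604, 3.23 and 8.39 CPM in untreated cells, 2.42, 2.89 and 11.3 in PUE, 8.76, 3.89 and 19.2 in GLY and 4.94, 4.44 and 23.5 in GLY_PUE (log2 fold change 1.90, SE 0.21, adjusted p = 2.73e-04). GRM8, a glutamate receptor, stood at 7.61, 7.01 and 27.4 CPM in untreated cells, 7.81, 6.53 and 23.5 in PUE, 0.622, 1.57 and 4.897 in GLY and 1.804, 1.53 and 3.93 in GLY_PUE (log2 fold change 1.76, SE 0.20, adjusted p = 2.99e-04). Its level fell with GLY in all libraries, and library 3 was the highest in each group. The other 4 of the 10 largest increases were CHN2, a Rac GTPase-activating protein (log2 fold change 2.09, SE 0.25), the RNA-binding proteins ELAVL2 (1.91, SE 0.27) and PCBP3 (1.86, SE 0.20), and KL, the FGF23 co-receptor Klotho (1.89, SE 0.29). Their adjusted p-values lay between 2.73e-04 and 0.00181. All 10 kept the call with TMM scaling and with any 1 library left out.

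The 10 largest decreases included a thyroid hormone deiodinase, a ubiquitin ligase, a histone and proteins of the cell cortex and junctions. They were likewise picked among called genes whose library 3 lay below libraries 1 and 2 in all 4 groups, a condition of the choice. DIO3, the deiodinase that inactivates thyroid hormone, stood at 28.6, 24.9 and 5.44 CPM in untreated cells, 27.5, 22.98 and 4.58 in PUE, 16.5, 9.25 and 2.28 in GLY and 11.2, 10.9 and 2.495 in GLY_PUE (log2 fold change −2.35, SE 0.19, adjusted p = 9.80e-05). Library 3 held the lowest value of each group by a wide margin, with and without GLY. MARCHF4, a membrane-bound ubiquitin ligase whose symbol had been turned into the date 4-Mar in the deposited table and was identified by its gene ID, stood at 4.81, 5.63 and 0.949 CPM in untreated cells, 5.04, 5.58 and 0.566 in PUE, 20.01, 17.5 and 4.56 in GLY and 15.05, 19.04 and 5.42 in GLY_PUE (log2 fold change −2.20, SE 0.22, adjusted p = 1.79e-04). It rose with GLY in both sets of libraries and stayed lowest in number 3 throughout. AHNAK, a very large scaffold protein of the cell cortex, stood at 886, 725 and 179 CPM in untreated cells, 819, 703 and 166 in PUE, 484.4, 2030.0 and 478 in GLY and 1732, 2248 and 617 in GLY_PUE (log2 fold change −1.85, SE 0.33, adjusted p = 0.00345). In GLY cells library 1 lay beside library 3 rather than library 2. KRTAP2-3, a keratin-associated protein, stood at 21.99, 23.9 and 6.04 CPM in untreated cells, 20.3, 17.8 and 6.64 in PUE, 180.3, 144 and 52.6 in GLY and 159.7, 164 and 58.03 in GLY_PUE (log2 fold change −1.63, SE 0.15, adjusted p = 1.06e-04), with library 3 lowest in each group. The other 6 were the histone HIST1H3D (log2 fold change −1.89, SE 0.26), the PDZ and LIM domain protein PDLIM2 (−1.65, SE 0.21), the RING finger protein RNF223 (−1.61, SE 0.22), the Wnt receptor ROR2 (−1.55, SE 0.15), the tight junction protein CLDN9 (−1.54, SE 0.24) and UQCRHL (−1.49, SE 0.31). UQCRHL is a near-identical copy of UQCRH, so its reads are uncertain. All 10 kept the call with TMM scaling and with any 1 library left out.

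**Figure D2:**
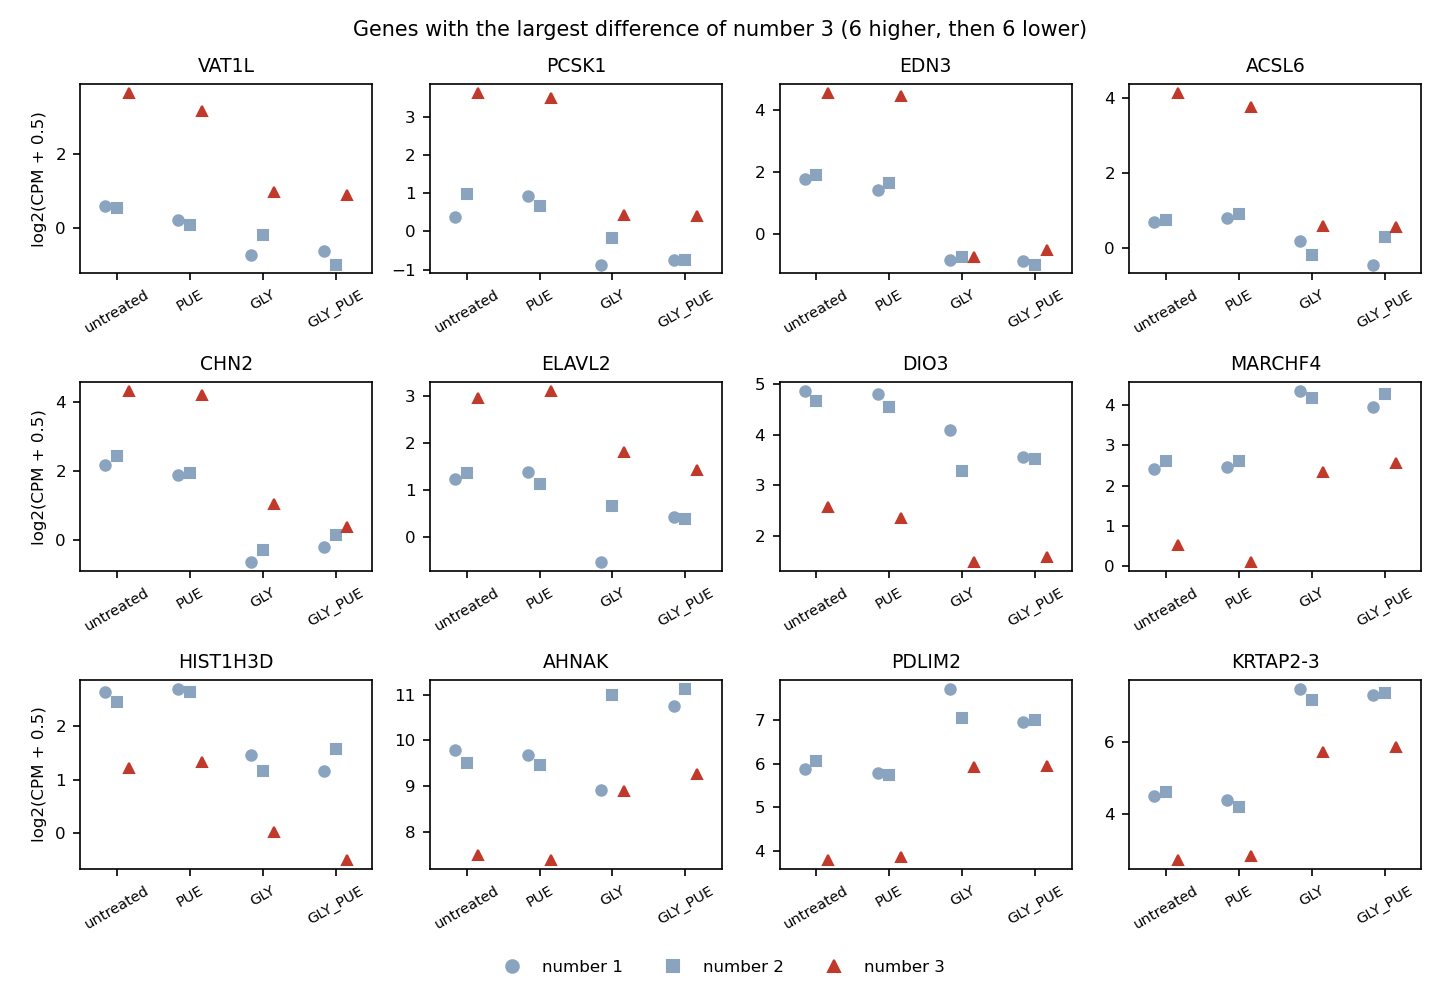
Levels of the 6 genes with the largest increases and the 6 with the largest decreases in number 3, as log2(CPM + 0.5) on the vertical axis, for libraries 1 (circles), 2 (squares) and 3 (triangles) of each group on the horizontal axis. Triangles lie above the other symbols in the first 6 panels and below them in the last 6, as the choice of these genes required. For EDN3 and ACSL6 the gap is much smaller with GLY.

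Most tested replication-dependent histone genes of the list were lower in number 3. Of the 9 tested members of the histone list, which also holds the variant H2AFX, 6 were lower and 0 higher, with a median log2 fold change of −0.85 against 0.23 for all genes tested, and with TMM scaling 7 were lower and 0 higher. By symbol the table held 27 histone genes among those tested, of which 12 were lower and 0 higher, against 5.31% and 18.1% of all genes tested. In all 4 groups 13 lay lowest in number 3, against 6.65% of all genes tested. Both counts include HIST2H2AA3 and HIST2H2AA4, whose values are the same. This wider set was chosen after the values of the list were seen. HIST1H2BD, a histone H2B gene, stood at 25.5, 20.99 and 10.3 CPM in untreated cells, 24.1, 23.5 and 11.1 in PUE, 11.2, 9.38 and 4.62 in GLY and 9.13, 9.15 and 3.89 in GLY_PUE (log2 fold change −1.16, SE 0.13, adjusted p = 2.83e-04), about the same drop in each group. HIST1H2BK, another H2B gene, stood at 142, 131 and 96.5 CPM in untreated cells, 144, 139.7 and 90.1 in PUE, 68.1, 48.6 and 22.4 in GLY and 50.4, 43.8 and 24.5 in GLY_PUE (log2 fold change −0.85, SE 0.17, adjusted p = 0.00633). HIST1H4H, a histone H4 gene, had a log2 fold change of −1.82 (SE 0.18) and HIST2H2AA3 one of −1.15 (SE 0.19). HIST2H2AA3 and HIST2H2AA4 carry the same values in the table, and histone genes are near-identical copies, so the assignment of reads among them is uncertain. H2AFZ, a variant histone gene that is not tied to replication, was not called (log2 fold change 0.32, SE 0.11, adjusted p = 0.0565). With GLY 6 of the 9 were lower and 0 higher, and without GLY 4 were lower and 1 higher (HIST3H2A, log2 fold change 0.80).

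The promoters of 2 of these genes show the elements by which histone genes are known. Both are the 250 bases before the RefSeq start (GRCh38.p14, on the strand of the gene), and the capitals mark the letters TATAAA on either strand. They are shown because both genes were lowest in library 3 of every group. HIST1H2BD, named H2BC5 in RefSeq, lies at chr6:26157871-26158120 on the plus strand, and HIST1H2BK, named H2BC12, at chr6:27146859-27147108 on the minus strand.
HIST1H2BD: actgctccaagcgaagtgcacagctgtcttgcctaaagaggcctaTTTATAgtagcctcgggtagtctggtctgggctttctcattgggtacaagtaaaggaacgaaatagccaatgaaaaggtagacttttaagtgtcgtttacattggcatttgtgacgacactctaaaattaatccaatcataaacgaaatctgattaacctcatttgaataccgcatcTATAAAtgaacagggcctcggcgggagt
HIST1H2BK: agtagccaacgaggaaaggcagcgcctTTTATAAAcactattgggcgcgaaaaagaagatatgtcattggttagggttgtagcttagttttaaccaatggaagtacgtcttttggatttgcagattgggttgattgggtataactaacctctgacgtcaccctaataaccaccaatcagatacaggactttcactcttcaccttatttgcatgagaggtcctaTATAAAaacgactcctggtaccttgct
The match nearest the start begins 28 bases before it in HIST1H2BD and 27 bases before it in HIST1H2BK, and both promoters hold further matches more than 200 bases away. TATAAA was found in 7 of 9 matched histone promoters (77.8%), against 11.1% of 27305 RefSeq promoters of the same length. The letters CCAAT, on either strand, were found in 8 of 9 (88.9%), against 33.0%.

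All called members of the cell division lists were higher. Of 28 G2 and M phase genes, 10 were higher in number 3 and 0 lower, with a median of 0.40, against 18.1% higher and a median of 0.23 for all genes tested. KIF20A, a kinesin needed for cytokinesis, stood at 106, 110.0 and 160.3 CPM in untreated cells, 103, 104 and 161 in PUE, 9.92, 15.3 and 27.01 in GLY and 13.9, 13.5 and 29.2 in GLY_PUE (log2 fold change 0.85, SE 0.15, adjusted p = 0.00366). HMMR, a spindle protein, stood at 142, 134 and 215 CPM in untreated cells, 139, 139 and 209 in PUE, 23.8, 45.3 and 76.8 in GLY and 41.2, 43.5 and 65.3 in GLY_PUE (log2 fold change 0.75, SE 0.17, adjusted p = 0.0111). Library 3 held the highest level of both genes in each group. CDC25C, the phosphatase that activates the mitotic kinase CDK1, had a log2 fold change of 0.60 (SE 0.12), while MKI67 (−0.12, adjusted p = 0.703) and CENPF (−0.01, adjusted p = 0.978) were not called. Of 24 G1 and S phase genes, 7 were higher and 0 lower, with a median of 0.32, which is nearer to those of all genes. TYMS, which makes thymidylate, stood at 149, 156 and 263 CPM in untreated cells, 153, 156 and 259.7 in PUE, 67.7, 76.01 and 105 in GLY and 76.4, 67.5 and 107 in GLY_PUE (log2 fold change 0.67, SE 0.11, adjusted p = 0.00284). These counts depend on the scale and on 1 library. With TMM scaling 2 G2 and M genes were higher and 0 lower, and 1 G1 and S gene was higher and 1 lower, and without GLY replicate 1 the counts were 20 and 0 of 28 and 15 and 0 of 24. In GLY cells library 1 was the lowest of the 3 for both KIF20A (9.92, 15.3 and 27.01 CPM) and HMMR (23.8, 45.3 and 76.8 CPM).

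The HMMR promoter is shown because it carries, just before the start, the element called CHR by which many genes of G2 and M phase are kept off outside those phases. It lies at chr5:163460382-163460631 (GRCh38.p14, plus strand), and the capitals mark 2 adjoining matches to TTTGAA.
HMMR: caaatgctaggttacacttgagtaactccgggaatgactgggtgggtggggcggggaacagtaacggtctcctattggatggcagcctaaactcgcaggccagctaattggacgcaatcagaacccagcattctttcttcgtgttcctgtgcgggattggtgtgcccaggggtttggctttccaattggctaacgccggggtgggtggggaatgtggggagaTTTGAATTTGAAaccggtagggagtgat
The matches begin 28 and 22 bases before the RefSeq start. TTTGAA, searched on both strands, was found in 14 of 25 matched G2 and M promoters (56%) and in 13.6% of all RefSeq promoters, and CCAAT in 21 of 25 (84%) and 33.0%. Among genes higher in number 3 as a whole, TTTGAA was in 13.1% of 458 promoters, close to the share of all promoters.

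Several immediate early genes, NF-κB genes and NRF2 targets were lower in number 3, with more calls without GLY than with it. Of 15 immediate early genes, 5 were lower and 1 higher, with a median of −0.39. Of all genes tested 5.31% were lower and 18.1% higher, with a median of 0.23. FOSB, a subunit of the transcription factor AP-1, stood at 31.1, 33.1 and 7.89 CPM in untreated cells, 30.5, 31.4 and 8.19 in PUE, 65.9, 62.2 and 30.5 in GLY and 63.7, 67.1 and 35.5 in GLY_PUE (log2 fold change −1.44, SE 0.20, adjusted p = 0.00139), and library 3 was lowest in each group. FOSL1, another AP-1 subunit, stood at 422, 479 and 123 CPM in untreated cells, 419, 416 and 130.5 in PUE, 1787, 1177 and 895 in GLY and 1208, 1211 and 948 in GLY_PUE (log2 fold change −1.11, SE 0.24, adjusted p = 0.00964). Its log2 fold change was −1.77 without GLY and −0.54 with it, where it was not called, and the overall call was lost without PUE replicate 3. JUN (−0.80, SE 0.25), the phosphatase DUSP5 (−0.61, SE 0.19) and the nuclear receptor NR4A3 (−1.54, SE 0.43) were the other 3 that were lower, and SPRY2, an inhibitor of receptor signalling, was the 1 that was higher (0.76, SE 0.22), a call that was lost with TMM scaling (0 higher and 6 lower of the list) and without any 1 of 9 libraries. NR4A3 was not called without any 1 of 5 libraries.

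CYR61, a secreted matrix protein and a YAP target, stood at 39.4, 39.9 and 12.99 CPM in untreated cells, 37.3, 38.3 and 13.1 in PUE, 82.7, 126 and 52.8 in GLY and 129, 129.6 and 60.8 in GLY_PUE (log2 fold change −1.29, SE 0.17, adjusted p = 8.94e-04). It was lowest in library 3 of each group and the 1 called member of 6 YAP targets, whose median was −0.34 (3 lower with TMM scaling). Of 7 NF-κB and inflammatory genes, 3 were lower and 0 higher: the cytokine CSF2 (−1.41, SE 0.29), with 7 reads in the 2 number 3 libraries without GLY, and the NF-κB subunits RELB (−0.83, SE 0.18) and NFKB2 (−0.53, SE 0.16). RELB lost its call without untreated replicate 3, and NFKB2 without any 1 of 8 libraries. Of all genes tested, 5.31% were lower (5.69% without GLY and 2.8% with GLY), and the median of the 7 was −0.53. Without GLY 5 were lower and 0 higher (median −0.77), and with GLY 1 was lower and 0 higher (−0.35). Of 9 NRF2 targets, 3 were lower and 0 higher, with a median of −0.14. Without GLY 4 were lower and 0 higher (median −0.56), and with GLY 1 was lower and 0 higher (0.28). FTH1, the heavy chain of the iron store ferritin, stood at 8500.4, 8469.9 and 3973 CPM in untreated cells, 8823, 8706 and 3919 in PUE, 20740.1, 13724 and 9876 in GLY and 14139, 13637 and 9729.8 in GLY_PUE (log2 fold change −0.89, SE 0.15, adjusted p = 0.00244). Library 3 was the lowest in each group. HMOX1, which breaks down heme (−1.05, SE 0.21), and OSGIN1 (−1.16, SE 0.24) were the other 2.

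Of 14 matrix and adhesion genes, 3 were higher and 5 lower, against 18.1% higher and 5.31% lower among all genes tested. The count higher was thus near the share of all genes. The keratinocyte genes below can be read beside the same shares. LAMB3, a chain of the basement membrane protein laminin-332, stood at 128, 137 and 37.2 CPM in untreated cells, 122, 123 and 37.9 in PUE, 349.7, 271 and 193 in GLY and 291, 271 and 183 in GLY_PUE (log2 fold change −1.17, SE 0.22, adjusted p = 0.00433), and its receptor subunit ITGA3 at 236, 246 and 98.4 CPM in untreated cells, 236, 234 and 106 in PUE, 810.4, 588 and 322 in GLY and 544, 575 and 400.0 in GLY_PUE (log2 fold change −1.001, SE 0.16, adjusted p = 0.00206). Both were lowest in library 3 of each group. PLAU and PLAUR, the urokinase protease and its receptor, were lower (−0.83, SE 0.25, and −0.81, SE 0.18). TNC, the matrix protein tenascin C, went the other way, with 7.19, 8.39 and 12.99 CPM in untreated cells, 7.52, 5.73 and 14.7 in PUE, 13.2, 26.1 and 69.6 in GLY and 23.7, 24.8 and 78.7 in GLY_PUE (log2 fold change 1.38, SE 0.22, adjusted p = 0.00181). COL7A1, the collagen of anchoring fibrils, was also higher (1.01, SE 0.28). The collagenase MMP1 was called higher, but had 1 read in the 2 number 3 libraries and 2 reads in the 4 others without GLY, so only its levels with GLY (0.431, 0.712 and 4.47 CPM in GLY and 0.712, 0.477 and 2.69 in GLY_PUE) bear on it, and its call was lost without GLY replicate 3. Among 13 keratinocyte genes, KRT80 (−0.62, SE 0.13), LCN2 (−1.07, SE 0.28) and KRT7 (−0.76, SE 0.22) were lower and 0 were higher, and LCN2 and KRT7 lost their calls without untreated or PUE replicate 3.

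All called sterol synthesis and hypoxia genes were higher in number 3, as were 77.4% of all called genes. Of 5 sterol genes, 4 were higher and 0 lower, with a median of 0.68, against 18.1% higher and a median of 0.23 for all genes tested. INSIG1, which holds SREBP in the endoplasmic reticulum and is itself an SREBP target, stood at 29.2, 28.1 and 106 CPM in untreated cells, 32.96, 31.7 and 96.04 in PUE, 12.97, 22.02 and 25.8 in GLY and 22.7, 26.1 and 30.1 in GLY_PUE (log2 fold change 1.13, SE 0.25, adjusted p = 0.00929). Library 3 was the highest in each group, far above the others without GLY and little above library 2 with it. IDI1, an enzyme of sterol synthesis, was also higher (0.68, SE 0.19), and INSIG1 was the 1 of the list that kept its call with TMM scaling. Of 8 hypoxia and glycolysis genes, 3 were higher and 0 lower, with a median of 0.41. The 3 were EGLN3, a prolyl hydroxylase that marks HIF for breakdown (0.96, SE 0.23), ANKRD37 (1.23, SE 0.28) and NDRG1 (0.45, SE 0.13). With TMM scaling ANKRD37 alone kept the call, and the calls of INSIG1, IDI1 and these 3 genes were lost without untreated replicate 3 or without PUE replicate 3. EGLN3 stood at 13.5, 14.5 and 38.3 CPM in untreated cells, 11.6, 11.9 and 36.6 in PUE, 3.02, 3.18 and 3.76 in GLY and 3.28, 3.102 and 3.31 in GLY_PUE, with a wide gap without GLY and a narrow one with it.

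Over the 4 groups together, Wnt targets, the pathway named in the title of the series, were called about as often as all genes tested. Of 28, 4 were higher and 1 lower, against 18.1% and 5.31% of all genes, with a median of 0.11 (−0.14 with TMM scaling, which gave the same counts of 4 and 1). Without GLY 7 were higher and 0 lower, against 14.3% and 5.69% of all genes (median 0.33, against 0.22). With GLY 0 were higher and 1 lower, against 7.58% and 2.8% (median −0.18, against 0.20). LGR5, an R-spondin receptor and marker of intestinal stem cells, stood at 1.35, 1.11 and 5.19 CPM in untreated cells, 1.36, 1.296 and 5.66 in PUE, 0, 0.0949 and 0.0951 in GLY and 0.0475, 0 and 0.192 in GLY_PUE (log2 fold change 2.05, SE 0.29, adjusted p = 0.0014). Its levels with GLY rest on 6 reads in 2 number 3 libraries and 3 reads in 4 others, a ratio of 4.01 (95% counting interval 0.857 to 24.8), so the call rests on untreated and PUE cells. DKK4, a secreted Wnt antagonist, stood at 14.5, 16.3 and 70.5 CPM in untreated cells, 14.2, 11.5 and 68.5 in PUE, 0.57, 0.859 and 0.872 in GLY and 1.04, 1.02 and 1.19 in GLY_PUE (log2 fold change 1.61, SE 0.32, adjusted p = 0.00637). Library 3 was far above the others without GLY and close to them with it, and the call was lost without untreated or PUE replicate 3. TNFRSF19 (1.23, SE 0.27) and the growth factor FGF20 (1.07, SE 0.22) were the other 2 that were higher, and the cyclin CCND1 was the 1 that was lower (−0.45, SE 0.15, adjusted p = 0.0476). AXIN2, the negative regulator often used as a readout of the pathway, was not called (−0.13, 95% interval −0.42 to 0.16). Of 10 p53 targets and 7 heat shock genes, 0 were called in either direction, with medians of −0.22 and 0.22, and of 13 interferon genes HERC5 was the 1 called (1.05, SE 0.28), which was lost with TMM scaling.

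Of all genes tested, 18.1% were higher and 5.31% lower, and the remaining lists can be read beside these shares. Of 15 ATF4 targets 2 were higher and 1 lower (0 and 5 with TMM scaling), of 10 TGF-β targets 1 and 1, of 6 Notch and secretory genes 3 and 1 (1 and 1 with TMM scaling), of 4 fatty acid genes 2 and 0, of 6 amino acid carriers 1 and 0, of 6 intestinal genes 1 and 0, of 3 lysosome and autophagy genes 1 and 0, of 7 metallothionein and zinc transport genes 0 and 1 (the zinc transporter SLC30A2, log2 fold change −1.08, with none of the 5 metallothioneins called), and of 5 clock genes 0 and 0. HES7, a Notch target, was lower (log2 fold change −1.27, SE 0.22, adjusted p = 0.00279), and the differentiation marker VIL1, villin, was higher (log2 fold change 0.59, SE 0.15, adjusted p = 0.0165), a call that was lost with TMM scaling and without untreated or PUE replicate 3. CDX2, the intestinal transcription factor, was not called (−0.02, 95% interval −0.45 to 0.41). No ribosome biogenesis gene of the list of 21 was analysed here.

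**Figure D3:**
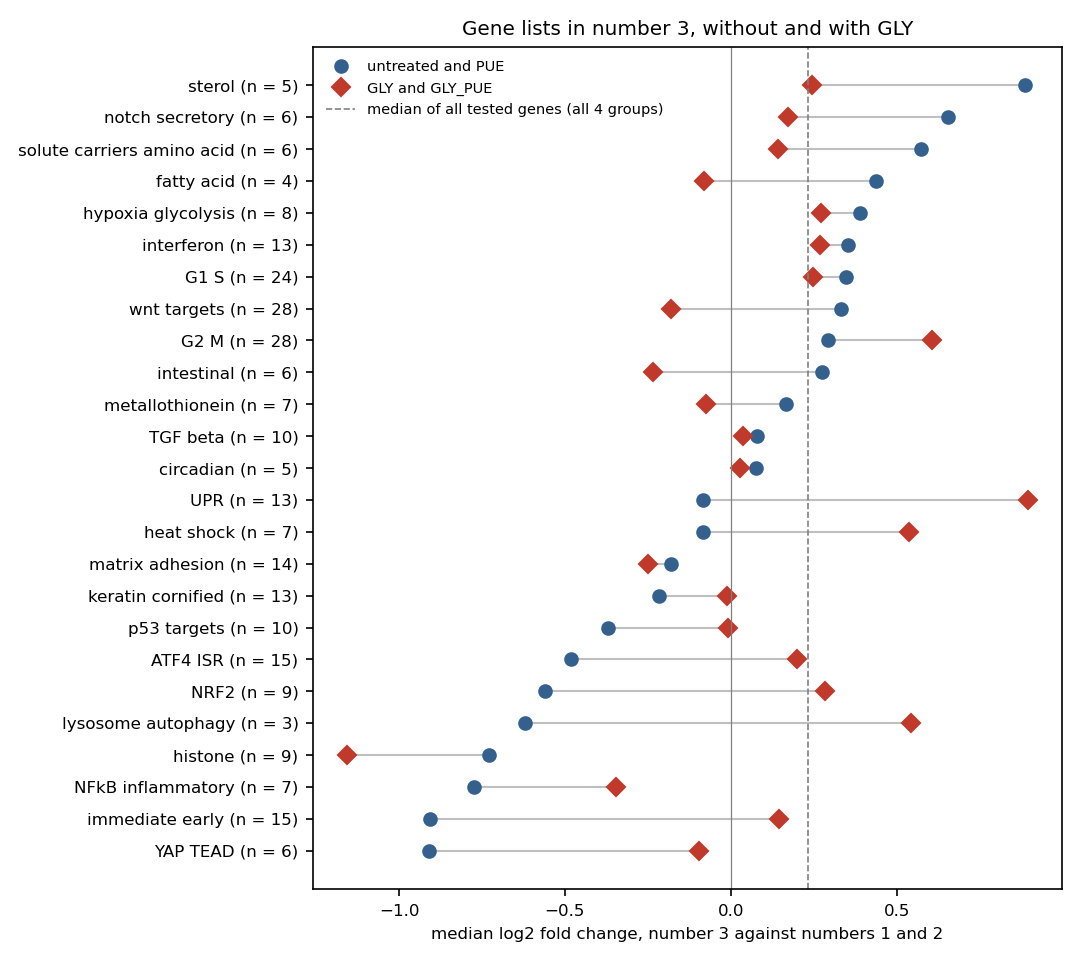
Median log2 fold change of number 3 against numbers 1 and 2 (horizontal axis) for the 25 lists with at least 3 genes tested (vertical axis, with the number tested), in untreated and PUE libraries (circles) and in GLY and GLY_PUE libraries (diamonds). The dashed line is the median of all tested genes, 0.23. For the unfolded protein response the circle lies at −0.08 and the diamond at 0.89, and for immediate early genes they lie at −0.91 and 0.14.

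The same comparison was then made separately without GLY and with GLY, in 1 fit over all 12 libraries. Without GLY, 686 genes differed in number 3 (20%; 14.3% of genes higher, and 195 genes, 5.69%, lower), and with GLY, 356 did (10.4%; 260 higher, 7.58%, and 96 lower, 2.8%). With TMM scaling the share higher among called genes was 37.7% without GLY, against 71.6% with library totals, and 50.2% with GLY, against 73.0%. With library totals, 154 genes were called in both, 22.4% of the first and 43.3% of the second list, and 143 of the 154 had the same sign. The first count was 83 without untreated replicate 3 and 100 without PUE replicate 3, 328 to 351 without any 1 of untreated or PUE replicates 1 and 2, and 2002 without GLY replicate 1. The second was 11 without GLY replicate 3, 79 without GLY_PUE replicate 3, 157 and 159 without GLY_PUE replicates 1 and 2, 191 to 212 without any 1 untreated or PUE library, 567 without GLY replicate 2 and 1449 without GLY replicate 1. Each of these fits leaves 1 library in an arm of number 3, or a smaller pool for the spread, which is then assumed to hold for the lone library.

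DIO3 fell by about the same amount without GLY (−2.38, adjusted p = 5.77e-04) and with it (−2.32, adjusted p = 0.00326). The histone gene HIST1H2BD (−1.14 and −1.19) and KRTAP2-3 (−1.72 and −1.55) were called in both as well. DERL3 (1.81 and 1.97) and GRM8 (1.81 and 1.70) were higher in both. Of 15 immediate early genes, 8 were lower without GLY and 0 higher (median −0.91), and with GLY 1 was lower and 0 higher (median 0.14). Sterol genes gave 4 higher of 5 without GLY (median 0.89) and 0 called with it (0.24). Unfolded protein response genes gave the reverse order: 0 of 13 were called without GLY (median −0.08), and 9 of 13 were higher and 0 lower with GLY (0.89). With TMM scaling, 2 of the 13 were lower without GLY and 5 higher with it. When GLY replicate 1 was left out, 2 were higher and 4 lower without GLY, and 13 were higher with it. A count in 1 arm and not the other is no test of a difference, which the following comparison gives.

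The response to GLY itself was broad in both sets, as the selection of the table makes it. Taking GLY and GLY_PUE against untreated and PUE, 3080 genes responded in numbers 1 and 2 (89.8%; 728 higher, 21.2%, and 2352 lower, 68.6%) and 2783 in number 3 (81.2%; 750 higher, 21.9%, and 2033 lower, 59.3%), with a median absolute log2 fold change of 1.21 and 1.48. TMM scaling moves these responses up by a median of 1.05 and 1.12, so that 654 of the 3080 and 366 of the 2783 change sign, and the directions below are those with library totals. The response differed between number 3 and numbers 1 and 2 in 115 genes (3.35%; interaction term in edgeR, adjusted p under 0.05), with 67 more positive (1.95%) and 48 more negative (1.4%) in number 3. At an unadjusted p under 0.05 there were 598. The direction of the response was kept in nearly all: of the 67, 64 rose with GLY in both sets, and of the 48, 46 fell in both. Of the 67, 46 were lower in number 3 without GLY, and 34 of these were not called with GLY. Of the same 67, 30 were higher in number 3 with GLY, of which 20 were not called without GLY and 10 were called in opposite directions. Of the 48, 38 were higher in number 3 without GLY, and 36 of these were not called with GLY.

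This count was the least stable of those given here. It was 0 without any 1 of untreated replicates 1 or 3, PUE replicates 1, 2 or 3, GLY replicate 3 or GLY_PUE replicate 2, and 21, 51, 39 and 140 without untreated replicate 2, GLY_PUE replicate 1, GLY_PUE replicate 3 and GLY replicate 2. Without GLY replicate 1 it was 1122, and these held all 115. Without the 3 GLY libraries, an alternative chosen after seeing the data because their labelled hours rise with the number, it was 1002, and these held 114 of the 115. With TMM scaling 90 genes were called, of which 78.9% were more positive, against 58.3% with library totals. The labelled hours and the number cannot be told apart within GLY.

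Of the genes with a larger rise in number 3, 34 were called lower there without GLY and not called with it. PPP1R15A, which turns off the stress-induced stop of translation, stood at 633, 662 and 184 CPM in untreated cells, 679.6, 697 and 188 in PUE, 2176, 1586 and 1552 in GLY and 1729.6, 1685 and 1593 in GLY_PUE. Library 3 was far below the others without GLY and beside library 2 with GLY (difference of the response 1.65, SE 0.19, adjusted p = 0.011). UPP1, a uridine phosphorylase, followed the same course, with 282, 297 and 69.3 CPM in untreated cells, 287, 289.8 and 67.3 in PUE, 1498, 965 and 871 in GLY and 997, 929.8 and 985 in GLY_PUE (1.86, SE 0.27, adjusted p = 0.0132). AREG, a ligand of the EGF receptor, stood at 4.16, 5.04 and 1.199 CPM in untreated cells, 4.49, 3.94 and 1.03 in PUE, 21.7, 35.02 and 39.6 in GLY and 35.7, 32.4 and 32.8 in GLY_PUE (2.20, SE 0.35, adjusted p = 0.0148). Library 3 was lowest without GLY, and with GLY it was the highest in 1 group and between the others in the other.

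The lipoxygenase ALOXE3 (2.26, SE 0.27), the small heat shock protein HSPB8 (2.41, SE 0.39) and the small GTPase RND1 (1.96, SE 0.26) had lower levels without GLY in number 3 and no called difference with GLY. The 10 genes called in opposite directions were lower in number 3 without GLY and higher with it. SPRR2D, a precursor of the cornified envelope, stood at 6.43, 5.597 and 2.65 CPM in untreated cells, 5.14, 5.02 and 1.28 in PUE, 67.6, 39.4 and 86.5 in GLY and 40.01, 37.9 and 91.3 in GLY_PUE: library 3 was lowest without GLY and highest with it (2.51, SE 0.39, adjusted p = 0.0144). PEAR1 stood at 11.8, 12.3 and 5.49 CPM in untreated cells, 12.7, 12.5 and 4.43 in PUE, 39.7, 48.3 and 65.2 in GLY and 48.7, 50.4 and 79.8 in GLY_PUE, with the same crossing (1.94, SE 0.23, adjusted p = 0.011). So did the DNA sensor IFI16 (2.21, SE 0.41) and the chloride channel BEST1 (1.97, SE 0.27). ARL14EPL had the largest difference (3.92, SE 0.66), but its level without GLY rests on 8 reads in 2 number 3 libraries against 43 in 4 others, a ratio of 0.376 (95% counting interval 0.153 to 0.809).

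Some immediate early and ATF4 genes also had a larger rise in number 3. Of 15 immediate early genes, 7 had a larger rise in number 3 and 0 a smaller one: FOSB, FOSL1, JUN (1.43, SE 0.19), ATF3 (1.70, SE 0.23), DUSP1 (1.39, SE 0.27), DUSP5 (0.99, SE 0.16) and ZFP36, which speeds the decay of cytokine mRNAs (1.54, SE 0.21). The median of the list was 0.99, against −0.01 for all genes tested, of which 1.95% were more positive and 1.4% more negative. ATF3, a transcription factor induced by many stresses, stood at 55.1, 57.8 and 21.3 CPM in untreated cells, 54.6, 54.4 and 20.1 in PUE, 136, 168 and 218 in GLY and 178, 165 and 174 in GLY_PUE. It was lowest in library 3 without GLY, while with GLY it was highest in GLY and between the others in GLY_PUE. Of 15 ATF4 targets, 4 had a larger rise and 0 a smaller one: DDIT3, which encodes the transcription factor CHOP (1.55, SE 0.26), SESN2 (1.24, SE 0.18), PPP1R15A and the tryptophan tRNA synthetase WARS (0.97, SE 0.15). The courses of these genes differed. JUN and DDIT3 were lower in number 3 without GLY (−1.57 and −1.26) and not called with it. FOSB was lower both without GLY (−1.97) and with it (−0.98), and WARS was lower without GLY (−0.49) and higher with it (0.48). With TMM scaling 6 immediate early and 3 ATF4 genes had a larger rise, and 0 a smaller one.

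Unfolded protein response genes took another course: in the fit over all 12 libraries none was called without GLY, and some rose further in number 3. Of 13, 5 had a larger rise and 0 a smaller one, with a median difference of 0.98. Among all genes tested 1.95% were more positive and 1.4% more negative, with a median of −0.01. HSPA5, the chaperone BiP that also keeps the sensors of the response inactive, stood at 652, 645 and 635 CPM in untreated cells, 684, 686 and 629 in PUE, 2779.8, 3559 and 7690.3 in GLY and 4072, 3491 and 6665 in GLY_PUE (difference 1.13, SE 0.21, adjusted p = 0.0231). Without GLY library 3 lay just below both others, and with GLY it lay above both in each group. HERPUD1, a part of the degradation machinery of the endoplasmic reticulum, stood at 84.6, 84.9 and 80.2 CPM in untreated cells, 83.6, 79.5 and 73.3 in PUE, 168, 200.2 and 462 in GLY and 224, 197 and 389 in GLY_PUE (1.23, SE 0.21, adjusted p = 0.0178). Library 3 again lay near or just below the others without GLY and above both with it. The other 3 were the chaperone HYOU1 (0.93, SE 0.15), the co-chaperone DNAJB11 (0.98, SE 0.22) and the transcription factor XBP1 (0.87, SE 0.17). PDIA4, a folding enzyme, stood at 144, 152 and 198 CPM in untreated cells, 155, 162 and 206 in PUE, 189, 295 and 834 in GLY and 308, 282 and 714 in GLY_PUE, and its difference missed the threshold (1.14, SE 0.27, adjusted p = 0.0614). The chaperone HSP90B1 was highest in library 3 of all 4 groups, with 464, 449 and 658 CPM in untreated cells, 472, 471 and 687 in PUE, 524, 865 and 1938 in GLY and 927, 834 and 1619 in GLY_PUE (number 3 effect 0.87, SE 0.18, adjusted p = 0.00661), and its difference of response was not called (0.66, adjusted p = 0.286). All 13 were called, and all with a larger rise, both without GLY replicate 1 and without the 3 GLY libraries. With TMM scaling 6 were. In number 3 without GLY, 2 of the 13 were called higher and 4 lower when GLY replicate 1 was left out, with a median of −0.08. The lack of such calls in the fit over all 12 libraries therefore depends on that library.

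The promoters of HSPA5 and HSP90B1 are shown because they carry the full ER stress response element to which ATF6 is known to bind, with NF-Y on its CCAAT letters. The sequences are the 250 bases before the RefSeq start (GRCh38.p14), at chr9:125241344-125241593 on the minus strand and chr12:103930160-103930409 on the plus strand, and the capitals mark matches to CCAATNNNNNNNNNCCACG on either strand.
HSPA5: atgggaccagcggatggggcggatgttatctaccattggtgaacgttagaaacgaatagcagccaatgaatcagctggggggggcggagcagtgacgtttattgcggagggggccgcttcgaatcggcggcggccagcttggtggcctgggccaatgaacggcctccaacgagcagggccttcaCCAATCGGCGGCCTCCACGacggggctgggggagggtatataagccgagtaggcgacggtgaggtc
HSP90B1: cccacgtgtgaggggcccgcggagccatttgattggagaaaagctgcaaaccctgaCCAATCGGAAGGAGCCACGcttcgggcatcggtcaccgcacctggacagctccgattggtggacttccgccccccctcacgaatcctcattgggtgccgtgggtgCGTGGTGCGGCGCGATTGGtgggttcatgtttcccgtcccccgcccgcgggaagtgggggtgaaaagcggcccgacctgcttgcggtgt
HSPA5 holds 1 match, 66 bases before the start, and HSP90B1 holds 2, at 194 and 89 bases, the second on the opposite strand. The element was found in 3 of 12 matched promoters of the list (25%; HSPA5, HSP90B1 and XBP1) and in 0.0806% of all RefSeq promoters. Its CCAAT letters alone, which overlap it, were in 11 of 12 (91.7%) and in 33.0% of all. These are matches of letters, and binding was not measured.

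**Figure D4:**
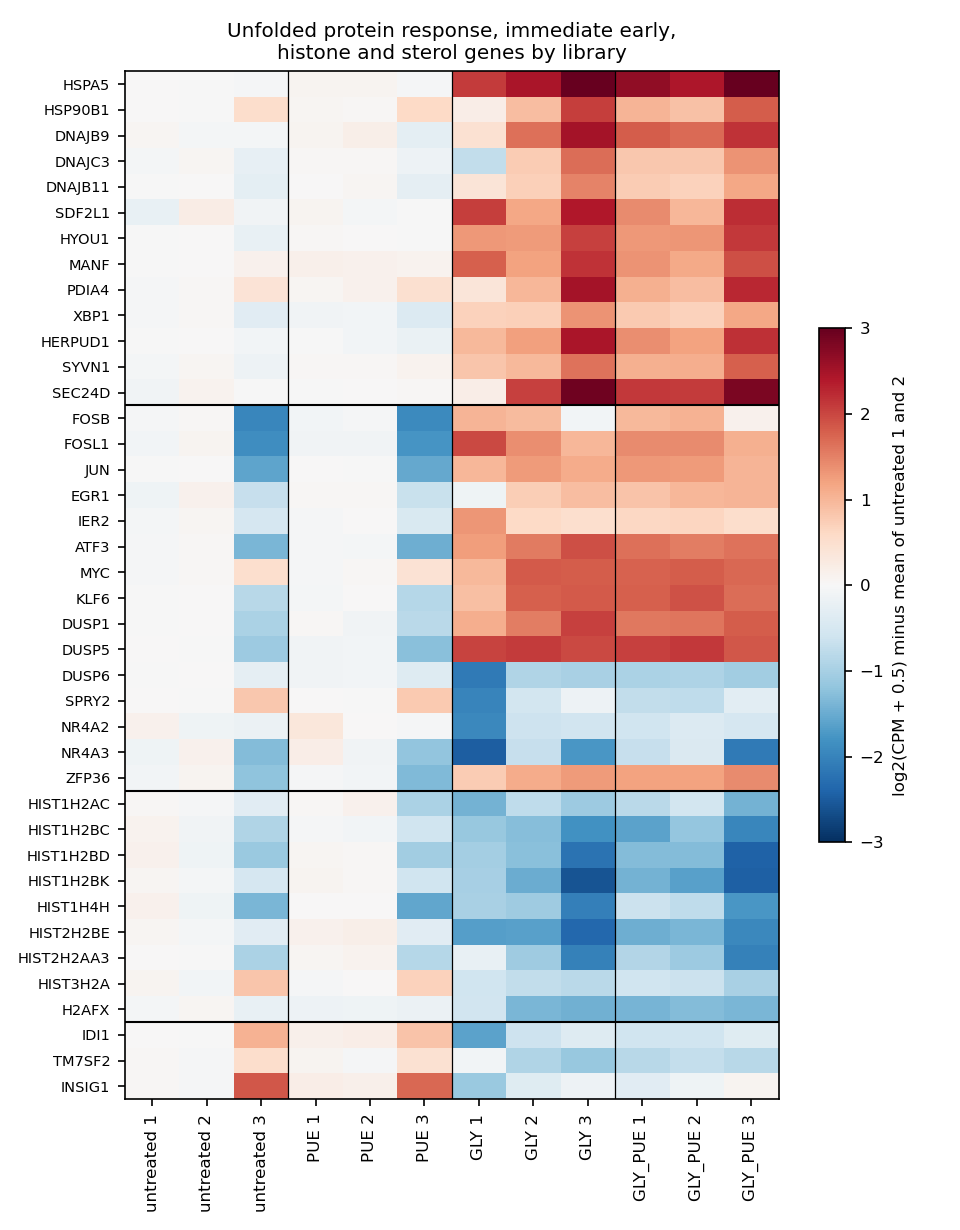
Each row is a gene of the unfolded protein response, immediate early, histone or sterol list (3 of the 5 sterol genes are shown, from top to bottom, split by lines), and each column 1 of the 12 libraries. The colour is log2(CPM + 0.5) minus the mean of untreated libraries 1 and 2, capped at 3 in both directions. In the top block each gene is redder in library 3 than in libraries 1 and 2 of GLY and GLY_PUE. Among immediate early genes FOSB, FOSL1 and JUN are blue in untreated and PUE library 3, and most histone genes are bluer in library 3 of each group.

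Among the 48 genes with a deeper fall in number 3, 38 were called higher there without GLY. Of these, 36 were not called with GLY, which does not show that they were level. CST1, a secreted cysteine protease inhibitor, stood at 8.75, 8.62 and 45.5 CPM in untreated cells, 9.77, 7.38 and 40.3 in PUE, 3.399, 1.99 and 3.21 in GLY and 1.89, 2.195 and 3.91 in GLY_PUE (difference −1.70, SE 0.34, adjusted p = 0.0348). Library 3 was far above the others without GLY, and with GLY it was not called (0.61). DKK4 (−2.07, SE 0.28) and ACSL6 (−2.55, SE 0.47), whose levels are given above, followed this course. MYH7B, a myosin heavy chain, stood at 62.7, 79.3 and 296 CPM in untreated cells, 65.8, 67.7 and 389 in PUE, 15.4, 11.9 and 16.7 in GLY and 10.9, 13.1 and 19.9 in GLY_PUE (−1.79, SE 0.29, adjusted p = 0.0152). Library 3 was the highest in each group, by far the most without GLY. EGLN3 (−1.38, SE 0.20) and ANKRD37 (−1.53, SE 0.34) were the 2 of 8 hypoxia genes with a deeper fall. Of 28 Wnt targets, 4 had a deeper fall and 0 a shallower one: DKK4, and the feedback inhibitors APCDD1 (−1.25, SE 0.17), NKD1 (−1.13, SE 0.17) and NOTUM (−1.17, SE 0.24). The median of the list was −0.59, against −0.01 for all genes tested, of which 1.95% were more positive and 1.4% more negative. AXIN2 was not called (−0.45, adjusted p = 0.245). NKD1 stood at 381, 382 and 789 CPM in untreated cells, 380.2, 382 and 772 in PUE, 28.7, 34.2 and 29.7 in GLY and 30.3, 32.9 and 29.5 in GLY_PUE, higher in library 3 without GLY and beside the others with it.

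Other genes with a deeper fall were not called without GLY and were lower in number 3 with it. AOC1, which breaks down histamine, stood at 32.2, 31.7 and 35.3 CPM in untreated cells, 31.2, 29.3 and 35.8 in PUE, 9.0, 6.78 and 2.04 in GLY and 5.13, 6.06 and 3.17 in GLY_PUE (−1.54, SE 0.35, adjusted p = 0.0496), and VWA1, a matrix protein, at 12.8, 10.99 and 15.6 CPM in untreated cells, 11.8, 11.96 and 16.2 in PUE, 3.88, 2.61 and 1.09 in GLY and 2.896, 2.67 and 1.39 in GLY_PUE (−1.69, SE 0.29, adjusted p = 0.0166). Library 3 lay slightly above the others without GLY and was the lowest with it. DBP, a transcription factor of the clock's output, started higher in number 3 (0.72) and was the 1 of 5 clock genes with a deeper fall (−1.53, SE 0.29). NFE2 (−2.67, SE 0.60) and the chemokine CXCL14 (−2.40, SE 0.38) had large differences but few reads: with GLY, NFE2 had 4 reads in 2 number 3 libraries and 73 in 4 others (ratio 0.110, 95% counting interval 0.0292 to 0.294), and CXCL14 had 4 and 48 (0.167, 0.0438 to 0.456).

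**Figure D5:**
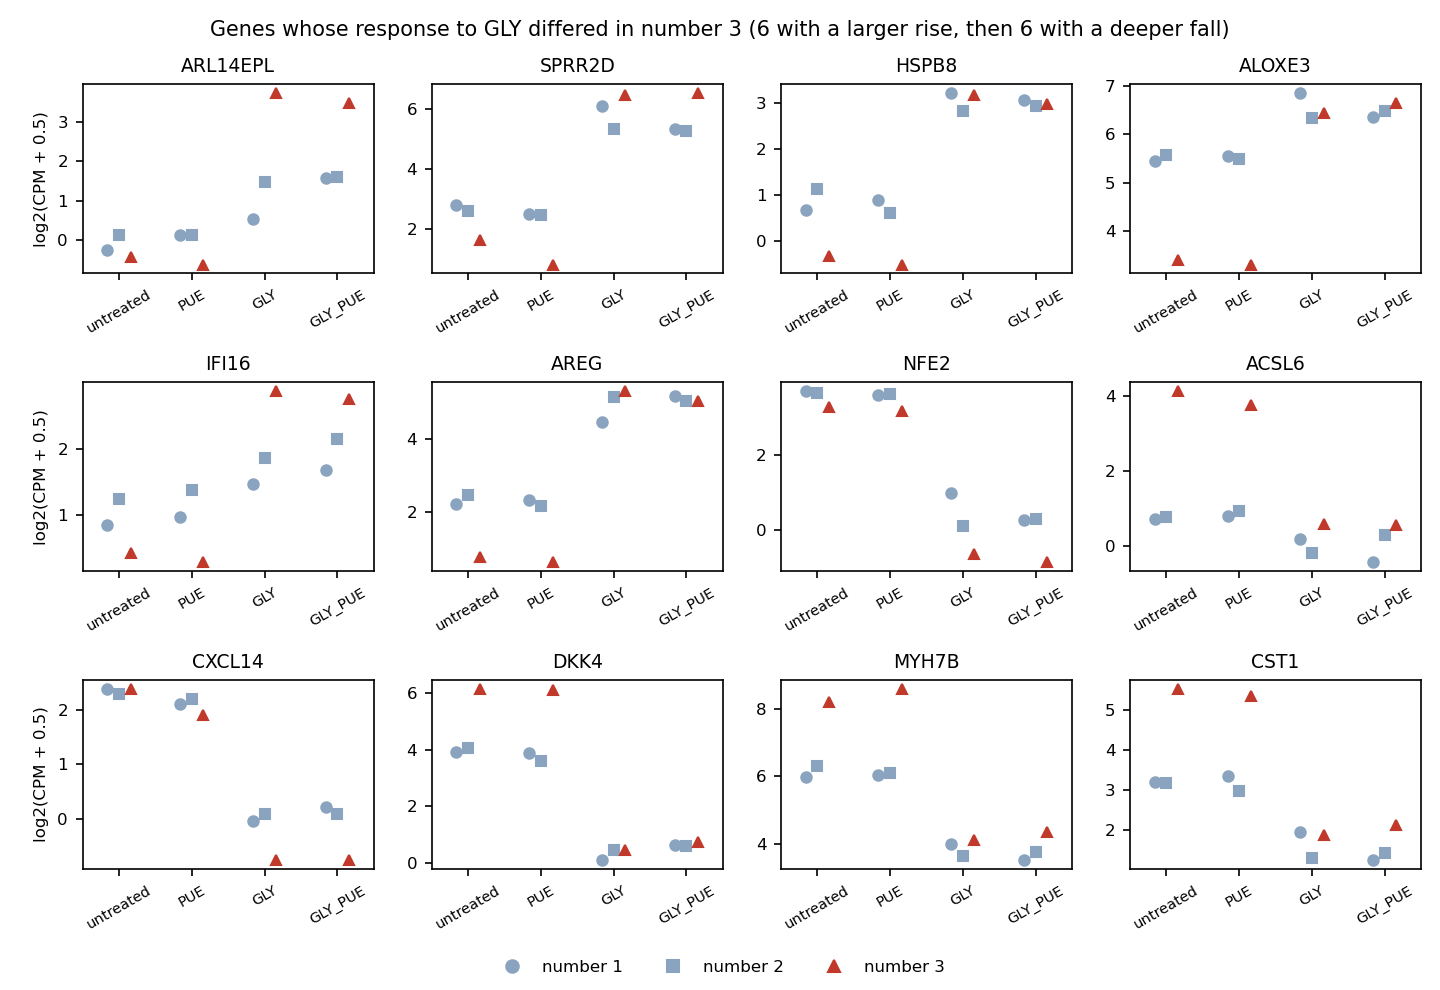
Levels of the 6 genes with the largest positive and 6 with a large negative difference of the GLY response in number 3, as log2(CPM + 0.5) on the vertical axis, for libraries 1 (circles), 2 (squares) and 3 (triangles) of each group on the horizontal axis. In panels such as HSPB8 and ALOXE3 the triangles start below the others and meet them with GLY, and in DKK4 and MYH7B they start above.

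The response to PUE was not found to differ between number 3 and numbers 1 and 2. No gene was called (0%; 0 of 3429 genes tested in edgeR), with 80 at an unadjusted p under 0.05. The counts were 1 with DESeq2 and 0 with limma-voom, and 14 without GLY replicate 1. A p that misses the threshold does not show that the responses were alike: for 31.1% of genes tested the 95% interval of this difference lay within 1 log2 unit of 0. The smallest p-values belonged to HSPE1-MOB4, LOC105376906, MIOX, GOLGA8O and CLIP3, of which HSPE1-MOB4 is a read-through of 2 genes and GOLGA8O one of many close copies, so their reads are uncertain.

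Number 2 against number 1 served as the reference for libraries of a group when neither is numbered 3. It set 1 library per group against 1 other, while number 3 was set against 2 per group. Its power was therefore lower, with a median SE of 0.26 against 0.22. No gene was called (0%; 0 of 3429 in edgeR), with 43 at an unadjusted p under 0.05, against 1308 for number 3. DESeq2 called 1 and limma-voom 0, and leaving out any 1 library also gave 0. The median absolute log2 fold change was 0.21 here and 0.39 for number 3, and 66.9% of the 95% intervals lay within 1 log2 unit of 0. The smallest p-values belonged to C8orf44-SGK3, KCNH8, NPIPB6, CIDEB and LOC107987364. The spread in this reference includes GLY replicate 1, which stood apart from GLY replicate 2.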

How the data were processed

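RNA of 12 libraries was read from 1 table of 3699 genes deposited by the authors (3647 marked mRNA, 30 lncRNA). Per the file headers, the authors deposited estimated counts (estimated count values per gene and library, not normalized and 58.8% whole) and an expression value without a unit, which behaves as FPKM. The authors' deposited log2 ratios and p-values or q-values were used only to see how genes had been selected. TopHat and DESeq 1.32.0 are named, without a role, in the submitters' processing notes. For the counter, the build and the annotation the sources used here name none.

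As the listed genes are only part of a library, totals were recovered from the count to FPKM ratio over 625 genes (at least 100 counts and an FPKM of 5), and put on an absolute scale with 122 single-transcript genes of GENCODE 29 (19.97 M reads, quartiles 19.4 and 20.2). The scale changes CPM levels but no fold change. Rounded counts went into edgeR 4.0.16 (R 4.3.3): filterByExpr by group, robust quasi-likelihood fit over all 12 libraries, library totals as scale, Benjamini-Hochberg adjustment over 3429 genes, threshold 0.05. The scripts were tested on simulated data. Intervals of read ratios are exact binomial (scipy 1.17.1) and cover counting error only. Alternatives were TMM, RLE, DESeq2 1.42.0, limma-voom (limma 3.58.1), other filters, a replicate block and each library left out.

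The genes named are the 10 largest increases and decreases among called genes whose log2 CPM averages 1 or more and that lie outside on 1 side in all 4 groups, the 10 largest of the response difference in each direction, in each list with 3 or more tested genes the 4 with the lowest p or fewer, and the 5 smallest p-values of the comparisons with no call. A few genes that the rule names are not reported here, though counts and medians of lists include them. Other genes (such as JUN, ATF3, MKI67, H2AFZ or AXIN2) were chosen after their values were seen. The members, lists and rule were chosen with earlier results of these data known. Promoters were matched by gene ID (2603 of 3429 tested genes) and searched for 9 motifs, of which 4 are described.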

Additional observations from a re-analysis of the deposited data

Results flagged for a closer look

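For the genes below the response to GLY differed between number 3 and numbers 1 and 2 by the interaction term (edgeR, adjusted p under 0.05). Values are the difference of the log2 response, number 3 minus numbers 1 and 2, and none of these calls was made when any 1 of the 7 libraries named above was left out. Larger rises or shallower falls in number 3 were found for ARL14EPL (3.92), SPRR2D (2.51), AKR1C1 (2.49, with 7 reads in the 2 number 3 libraries without GLY), HSPB8 (2.41), ALOXE3 (2.26), IFI16 (2.21), AREG (2.20), BEST1 (1.97), RND1 (1.96), PEAR1 (1.94), UPP1 (1.86) and PPP1R15A (1.65). They were also found for SESN2 (1.24), FOSL1 (1.24), HERPUD1 (1.23), AXL (1.20), the autophagy gene WIPI1 (1.16), HSPA5 (1.13), LAMB3 (1.11) and FOSB (1.00). Deeper falls in number 3 were found for NFE2 (−2.67), ACSL6 (−2.55), CXCL14 (−2.40), DKK4 (−2.07), MYH7B (−1.79), CST1 (−1.70), VWA1 (−1.69), AOC1 (−1.54), DBP (−1.53), ANKRD37 (−1.53) and EGLN3 (−1.38). The causes were not tested.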

How the results depend on the processing

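No call of a single named gene changed sign under any alternative that was run, but TMM turned the balance of the calls for number 3 (250 higher and 327 lower, against 622 and 182) and without GLY (37.7% higher, against 71.6%), and the sign of the Wnt list's median (−0.14, against 0.11). Counts that moved by over 1.5 times were these. Requiring at least 10 CPM in 3 libraries left 1720 genes to test and gave 373 genes for number 3, 377 without GLY, 205 with GLY, and 1639 and 1434 for the response to GLY in numbers 1 and 2 and in number 3. TMM and RLE gave 1401 and 1447 for that response in numbers 1 and 2 and 1377 and 1415 in number 3, with 59.8% (TMM) and 57.8% (RLE) higher against 23.6%, and 60.4% and 58.7% against 27.0%, since both move the median response by about 1 log2 unit. DESeq2 gave 244 for the difference of the GLY response, 1 for that of the PUE response and 1 for number 2 against 1. Without the 3 GLY libraries, an alternative chosen after seeing the data, the counts were 1645 for number 3, 2060 without GLY, 1190 with GLY, 1002 for the GLY difference and 4 for the PUE difference. The cause was not tested.

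Leaving out each library in turn gave 341 to 1656 genes for number 3, 83 to 2002 without GLY, 11 to 1449 with GLY, 2913 to 3259 for the response to GLY in numbers 1 and 2, 2184 to 3258 in number 3, 0 to 1122 for the GLY difference, 0 to 14 for the PUE difference and 0 to 0 for number 2 against 1. Libraries of the same number tended to deviate alike. Deviations from group means correlated over 0.1 in 15 of 18 same-numbered pairs, and 10 of 12 libraries correlated best with their own number. For number 3 all 6 pairs lay over 0.1 (0.231 to 0.888). The group means include library 3, so its shift also moves the deviations of libraries 1 and 2. Whether numbers 1 and 2 pair libraries can therefore not be decided by this check. With the replicate block, the counts were 748 for number 3, 626 without GLY, 302 with GLY, 84 for the GLY difference, 0 for the PUE difference, and 3084 and 2786 for the responses. Depth limits genes with few reads, such as EDN3 and LGR5 with GLY. Of 111 calls of single named genes, TMM lost 30, RLE 26, the replicate block 7, limma-voom 2 and DESeq2 1, and leaving out untreated replicate 3 lost the most, 61, while all 111 were kept without GLY replicate 1.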
